A study of Mus musculus with 6 samples.

Results

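The epithelial keratins *Krt5*, *Krt7*, *Krt8*, *Krt14*, *Krt15*, *Krt17*, *Krt18*, *Krt19*, *Krt20* and *Krt23* were taken by symbol from the 55367 gene symbols of each library, and all 10 were found. RNA-seq was done on kidney cells enriched with *Dolichos biflorus* lectin (DBA), which binds collecting duct epithelium, with 2 libraries in each of 3 groups, all labelled Day115. WT mice, *Pkd1*+/+ by the study's methods, received saline, and whether they carried the Cre was not given in the sources used here. ADPKD mice were male *Pkd1* fl/fl;*Cre/Esr1*+ mice in which tamoxifen had deleted *Pkd1*, and they received saline. ADPKD+MMPP mice had the same deletion and received intravenous MMPP, a polyethylene glycol-incorporated, manganese-chelated melanin-like nanoparticle. The promoter that drives the Cre and the number of mice behind each library were not given in the sources used here, so the p-values below measure only the spread between these libraries.

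Keratins are the intermediate filament proteins of epithelia. A filament is built from pairs of an acidic type I keratin and a basic type II keratin, and the partners stabilise each other. Of the genes described here, *Krt5*, *Krt7* and *Krt8* encode type II keratins, and *Krt14*, *Krt15*, *Krt17*, *Krt18*, *Krt19*, *Krt20* and *Krt23* encode type I keratins. *Krt8* and *Krt18* are the founding pair of simple epithelia, *Krt7* and *Krt19* are typical of ducts, and *Krt20* is known from urothelial umbrella cells, intestine and injured tubules. *Krt5*, *Krt14* and *Krt15* mark basal cells of stratified epithelia, and *Krt17* is a keratin of activated and wounded epithelium.

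The deposited values were FPKM, fragments per kilobase of exon scaled to depth. Multiplied by exon length they fell on whole steps, taken here as reads. Of the values between 1 and 100 reads, 98.3% to 98.9% lay within 0.05 of a whole number. The depths, in M reads, were 30.6 and 31.0 for WT, 33.1 and 32.1 for ADPKD, and 11.8 and 10.9 for ADPKD+MMPP. Odd read numbers made up 38.7% to 40.3% of these low values in the WT and ADPKD libraries and 9.56% to 9.77% in the ADPKD+MMPP libraries. Most low values of the treated libraries thus fell on even numbers. Their depths and read numbers may be in another unit than those of WT and ADPKD, which was not tested. The treatment cannot be told apart from the way in which the treated files were produced. *Pkd1*, the deleted gene, had 17.7 and 17.2 FPKM in WT, 7.64 and 8.91 in ADPKD, and 4.34 and 3.99 in ADPKD+MMPP. The labels describe both DBA-positive cells and RNA of whole kidney. The summed FPKM of 8 principal cell markers, *Aqp2* among them, was 2079 and 2776 in WT, and that of 8 proximal tubule markers was 110 and 42.3. Markers of other cells were not low in WT. The sum was 1301 and 517 for 6 markers of thick limb and distal convoluted tubule, and 567 and 449 for 7 of fibroblasts and endothelium. The purity of the cells was not tested.

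In WT cells most of the keratin FPKM was that of *Krt8* and *Krt18*. *Krt8* (chromosome 15, 101996698 to 102004482, minus strand, GRCm38) had 227 and 316 FPKM in the WT libraries, and *Krt18* (chromosome 15, 102028180 to 102032027, plus strand) had 211 and 264. *Krt7* (chromosome 15, 101411043 to 101430313, plus strand) had 33.1 and 37.8 FPKM, and *Krt23* (chromosome 11, 99477974 to 99493137, minus strand), a type I keratin of glandular epithelia, had 14.9 and 22.3. The WT values of *Krt8* and *Krt18* overlapped, and they lay above those of *Krt7*, which in turn lay above those of *Krt23*. FPKM are per length of all annotated exons, and *Krt7* is annotated with 7049 exon bases against 4094 in its principal transcript, so its level relative to the other genes depends on the length used.

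*Krt19* (chromosome 11, 100140810 to 100148665, minus strand) had 1.73 and 1.93 FPKM in WT, and *Krt20* (chromosome 11, 99428403 to 99438150, minus strand) had 0.628 and 1.86. These values of *Krt20* lay on either side of those of *Krt19*. The basal keratins and *Krt17* were near the limit of the depth. *Krt5* (chromosome 15, 101707070 to 101712898, minus strand) had 21 and 14 reads, *Krt14* (chromosome 11, 100203162 to 100207548, minus strand) had 8 and 10 reads, *Krt15* (chromosome 11, 100131758 to 100135928, minus strand) had 4 and 24 reads, and *Krt17* (chromosome 11, 100256217 to 100261029, minus strand) had 6 and 2 reads. All these values were under 0.5 FPKM, and counting error alone is large at such numbers. A library with 3 reads or fewer, as for *Krt17* in WT replicate 2, does not tell a gene from an absent one.

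**Figure D1:**
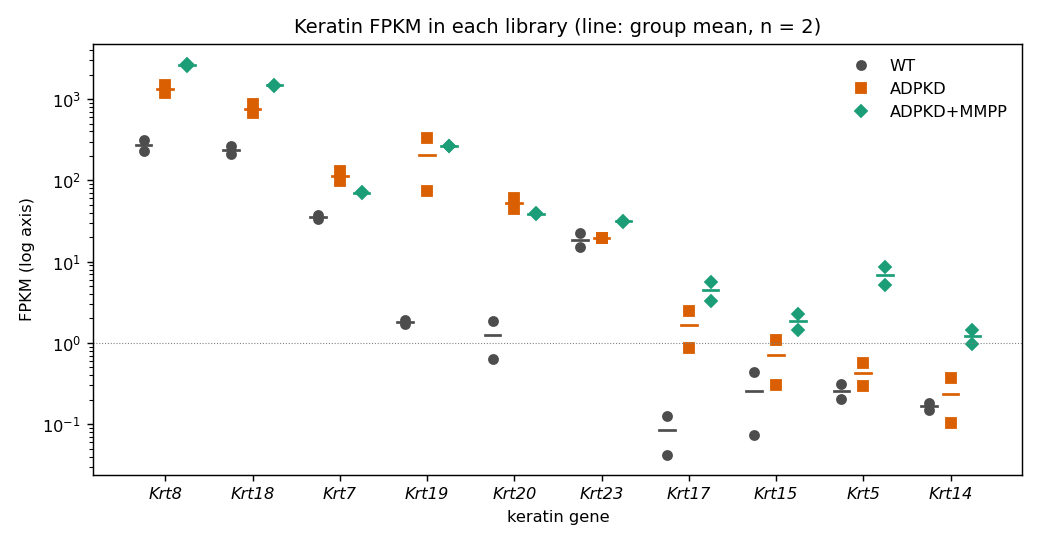
FPKM on a log axis of the 10 keratins in each library, with circles for WT, squares for ADPKD and diamonds for ADPKD+MMPP, a short line for the mean of the 2 libraries of a group, and a dotted line at 1 FPKM. *Krt8* and *Krt18* lie highest in each of the 6 libraries, and *Krt19* and *Krt20* lie near 1 FPKM in WT and from 38.1 FPKM upwards in the other groups.

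The comparison of ADPKD with WT asks how the keratin values differed between these 2 groups of DBA-enriched cells. *Krt19* and *Krt20* rose most, from under 2 FPKM to at least 44.9 FPKM, followed by *Krt8*, *Krt18*, *Krt7* and *Krt17*, while *Krt23*, *Krt5* and *Krt15* did not pass the test. Of the 9 keratins that passed the filter of at least 1 FPKM in at least 2 libraries, 6 were called higher and 0 lower, where a call needs a fold of at least 1.5 and a Benjamini-Hochberg adjusted p under 0.05 from limma. Of all 14862 tested genes, 12.0% were called higher and 10.6% lower. *Krt14* did not pass the filter, and *Krt5*, *Krt15*, *Krt17* and *Krt20* passed it only with libraries of ADPKD or ADPKD+MMPP. Without any filter on low values, 5 of the 10 were called higher and 0 lower, against 4.01% and 3.67% of 31205 genes. The call lost was that of *Krt17*. The main fit takes 1 variance per gene from all 6 libraries, so its p-values here also draw on the treated replicates. The mean chi-square per gene between replicates was 4.15 for the treated pair, against 82.3 for ADPKD and 22.1 for WT, at unequal depths. With only these 2 groups fitted, adjusted p from limma was larger for all 6 called keratins. It was 0.0193 for *Krt8*, 0.0208 for *Krt19* and 0.0696 for *Krt17*, which lost its call.

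*Krt19* had 1.73 and 1.93 FPKM in WT and 74.1 and 330 in ADPKD. Both ADPKD libraries lay far above both WT libraries, and they differed from each other more than the ADPKD libraries did for *Krt7*, *Krt8*, *Krt18*, *Krt20* or *Krt23*. The log2 fold change of FPKM + 1 was 5.80 (SE 0.64, adjusted p = 0.00397 from limma), the rank of 2 among the 14862 tested genes. Leaving out ADPKD replicate 2 gave 4.73 and leaving out ADPKD replicate 1 gave 6.87, and it was called in both cases.

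*Krt20* had 0.628 and 1.86 FPKM in WT and 44.9 and 59.8 in ADPKD. The groups did not overlap. Its log2 fold change was 4.61 (SE 0.28, adjusted p = 0.00155 from limma), the rank of 10 among the tested genes. These FPKM stand for 37 and 111 reads in WT and 2863 and 3695 reads in ADPKD.

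*Krt8* had 227 and 316 FPKM in WT and 1187 and 1494 in ADPKD, a log2 fold change of 2.31 (SE 0.20, adjusted p = 0.00262 from limma). Its partner *Krt18* had 211 and 264 FPKM in WT and 667 and 857 in ADPKD, a log2 fold change of 1.67 (SE 0.18, adjusted p = 0.00373 from limma). The ADPKD values of both partners lay above all WT values, and of the ADPKD libraries replicate 2 had more of both. *Krt7* had 33.1 and 37.8 FPKM in WT and 97.7 and 131 in ADPKD, a log2 fold change of 1.65 (SE 0.16, adjusted p = 0.00326 from limma). *Krt7*, *Krt8*, *Krt18* and *Krt19* were called higher under each of 18 alternatives of pseudocount, filter, scaling, fit and left-out library, and *Krt20* under each of the 17 that tested it.

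*Krt17* had 0.127 and 0.0417 FPKM in WT and 0.877 and 2.47 in ADPKD, which is 6 and 2 reads against 45 and 123. Its log2 fold change was 1.24 (SE 0.34, adjusted p = 0.0457 from limma). The groups did not overlap, but the call held in only 7 of 17 alternatives, with adjusted p from limma between 0.0123 and 0.191. *Krt23* had 14.9 and 22.3 FPKM in WT and 19.4 and 19.4 in ADPKD, so both ADPKD libraries lay between the WT libraries. *Krt15* and *Krt5* had log2 fold changes of 0.41 (SE 0.30, adjusted p = 0.342 from limma) and 0.18 (SE 0.24, adjusted p = 0.618 from limma). *Krt14* had 0.149 and 0.184 FPKM in WT and 0.103 and 0.373 in ADPKD, where the ADPKD values enclose the WT values.

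**Figure D2:**
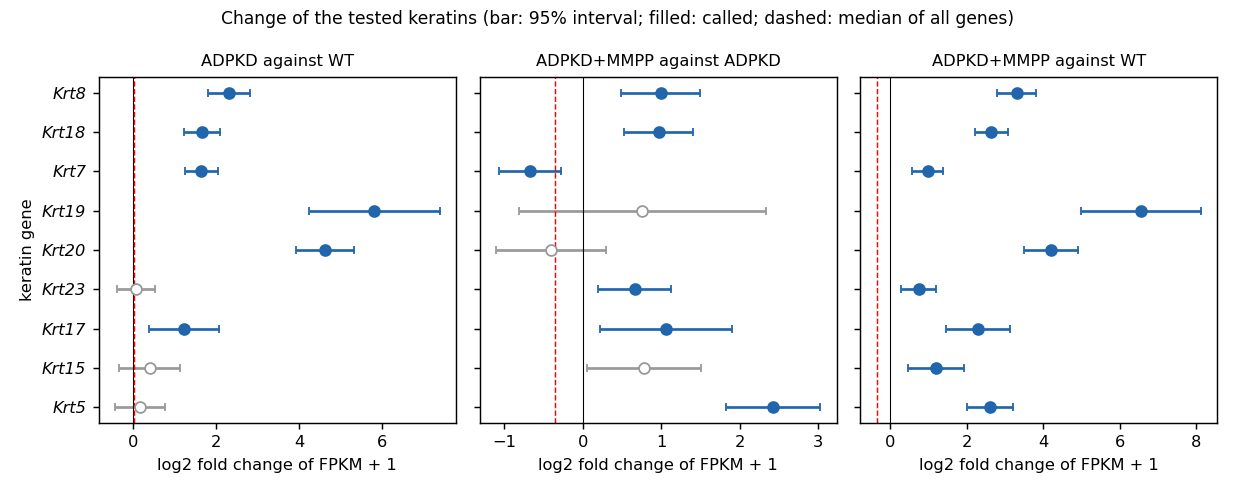
Log2 fold change of FPKM + 1 of the 9 tested keratins in the 3 comparisons, one panel each, with 95% intervals from limma, filled points for called genes, open points for genes not called, and a dashed red line at the median of all tested genes. *Krt19* and *Krt20* lie farthest to the right against WT in both ADPKD groups, and with MMPP against ADPKD *Krt5* lies farthest to the right and *Krt7* is the called gene to the left.

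Markers of other cells moved in the same comparison, where 12.0% of all tested genes were called higher and 10.6% lower. In bulk samples, fewer cells of a type and less RNA per cell cannot be told apart. Of 7 injured tubule markers, 6 were called higher in ADPKD and 0 lower, and their summed FPKM was 852 to 914 in WT and 5931 to 6565 in ADPKD, led by *Spp1*. Of 8 intercalated cell markers, 8 were called lower, with a summed FPKM of 336 to 348 in WT and 36.7 to 92.1 in ADPKD. Of 7 tested principal cell markers, 0 were called in either direction, with sums of 2079 to 2776 and 942 to 2482 FPKM. Of 8 urothelial markers, 6 were tested, 2 were called higher and 1 lower. Their sum was 15.2 to 15.3 FPKM in WT and 54.5 to 160 in ADPKD, mostly *Psca* with 41.4 and 142 FPKM. Of the uroplakins, *Upk3b* was called higher, with 2.75 and 1.58 FPKM in WT and 8.60 and 15.5 in ADPKD, while *Upk2* was at 0.0558 and 0.0576 FPKM in ADPKD. None of these markers was at 0 in all 6 libraries. Of 8 proximal tubule markers, 3 were called higher and 0 lower, *Lrp2*, *Cubn* and *Slc5a12*, while the sum was 42.3 to 110 FPKM in WT and 35 to 130 in ADPKD. The part of these cells in the keratin values was not tested.

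The promoters of the keratins that rose in ADPKD are shown for those with an entry in the RefSeq table (GRCm38.p6), which held 7 of the 10 genes. Each line gives the 250 bases before the RefSeq start, 5′ to 3′ on the strand of the gene, for *Krt8* at chr15:102004343-102004592 (minus), *Krt18* at chr15:102027966-102028215 (plus), *Krt7* at chr15:101412153-101412402 (plus) and *Krt20* at chr11:99438154-99438403 (minus). Capitals mark matches to the motifs searched.
Krt8: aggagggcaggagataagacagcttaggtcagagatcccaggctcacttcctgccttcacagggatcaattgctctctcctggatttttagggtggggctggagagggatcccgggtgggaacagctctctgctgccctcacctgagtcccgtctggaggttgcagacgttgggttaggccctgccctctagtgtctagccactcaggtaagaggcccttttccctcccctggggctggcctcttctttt
Krt18: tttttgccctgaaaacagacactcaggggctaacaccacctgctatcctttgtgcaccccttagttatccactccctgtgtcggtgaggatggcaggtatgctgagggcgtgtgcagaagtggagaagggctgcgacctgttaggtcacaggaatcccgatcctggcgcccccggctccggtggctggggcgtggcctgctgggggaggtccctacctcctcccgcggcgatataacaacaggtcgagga
Krt7: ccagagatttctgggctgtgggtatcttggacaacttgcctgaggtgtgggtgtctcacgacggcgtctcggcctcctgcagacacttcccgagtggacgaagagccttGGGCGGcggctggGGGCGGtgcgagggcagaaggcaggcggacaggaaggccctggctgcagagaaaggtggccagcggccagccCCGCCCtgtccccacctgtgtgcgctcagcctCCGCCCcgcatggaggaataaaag
Krt20: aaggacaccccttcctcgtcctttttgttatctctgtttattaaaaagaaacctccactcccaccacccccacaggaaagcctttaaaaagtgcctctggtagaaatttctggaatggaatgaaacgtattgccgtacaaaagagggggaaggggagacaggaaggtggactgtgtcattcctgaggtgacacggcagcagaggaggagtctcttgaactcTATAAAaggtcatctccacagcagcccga
The motifs searched on both strands were the cAMP response element TGACGTCA, the binding site of CREB that the study is about, its half-site TGACG, which is contained in the full element, the AP-1 site TGANTCA, the TATA box TATAAA and the GC box GGGCGG. The full element was in none of the 7 keratin windows and in 1.55% of all 32851 windows of this length. The half-site was in that of *Krt5* alone, and in 17.8% of all windows. The window of *Krt20* had a TATA box whose first base was at position -29 from the start, a motif found in 12.4% of all windows. The window of *Krt7* had 4 GC boxes, a motif found at least once in 32.7% of all windows, and those of *Krt8* and *Krt18* held none of these motifs. The AP-1 site was in none of the 7 windows and in 6.75% of all windows. The RefSeq starts differ from the ends of the gene spans given above. The windows of *Krt7* and *Krt14* lie inside those spans, and the windows of *Krt8*, *Krt18* and *Krt23* reach into them. Bases before the outermost annotated start of these genes were thus searched only in part or not at all. These matches describe the letters of the windows and not the binding of a factor.

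The comparison of ADPKD+MMPP with ADPKD asks how the keratin values differed between treated and untreated ADPKD libraries. *Krt5*, *Krt8*, *Krt18*, *Krt17* and *Krt23* were called higher, *Krt7* was called lower, and *Krt19*, *Krt20* and *Krt15* were not called. That is 5 of 9 tested keratins higher and 1 lower, where 27.7% of all tested genes were called higher and 42.6% lower. *Krt5*, *Krt15* and *Krt17* passed the filter only with the treated libraries. Without any filter, 5 of the 10 keratins were called higher and 1 lower, where 4053 of 31205 genes were called higher and 6386 lower. *Krt17* was then not called (adjusted p = 0.0887 from limma). Over all tested genes the log2 fold changes had a median of -0.36. These values depend on the annotation of the genes. Protein-coding genes whose exon bases all lie in exactly 1 annotated transcript, of which 1312 were tested, had a median of 1.10 in this comparison and 0.03 in ADPKD against WT. *Krt5*, *Krt8*, *Krt17*, *Krt18*, *Krt20* and *Krt23* are of this kind, while this share of exon bases was 74.8% for *Krt7*, 64.8% for *Krt15*, 50.5% for *Krt19* and 39.6% for *Krt14*. The values are therefore given also relative to protein-coding genes of a like share, by centring each library within 20 bins of it, and by this measure 2 of 9 keratins were called higher and 2 lower, where 33.8% of 12375 genes were called higher and 24.0% lower.

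*Krt8* had 1187 and 1494 FPKM in ADPKD and 2574 and 2729 in ADPKD+MMPP, a log2 fold change of 0.99 (SE 0.20, adjusted p = 0.00533 from limma). *Krt18* had 667 and 857 FPKM in ADPKD and 1505 and 1454 in ADPKD+MMPP, a log2 fold change of 0.97 (SE 0.18, adjusted p = 0.00323 from limma). The groups did not overlap for either gene, and both changes lay close to the median of 1.10 of the genes with 1 transcript. Centred by gene structure the log2 fold changes were -0.13 for *Krt8* and -0.16 for *Krt18*, and under quantile normalization they were -0.12 and 0.06, and none of these 4 values was called. The rise of this pair with treatment was called in 15 of 18 alternatives for each gene and depends on the scaling.

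*Krt7* had 97.7 and 131 FPKM in ADPKD and 71.1 and 69.7 in ADPKD+MMPP. Both treated libraries lay below both ADPKD libraries and above both WT libraries. Its log2 fold change was -0.67 (SE 0.16, adjusted p = 0.00990 from limma), and centred by gene structure it was -0.97 and was called. It was called lower in 13 of 18 alternatives, with log2 fold changes from -0.99 to -0.46, the latter under median-ratio factors, where it was not called.

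*Krt20* had 44.9 and 59.8 FPKM in ADPKD and 39.6 and 38.1 in ADPKD+MMPP. The treated libraries lay below both ADPKD libraries and far above both WT libraries. The log2 fold change was -0.41 (SE 0.28, adjusted p = 0.234 from limma) and was not called. Centred by gene structure it was -1.53 and was called lower, the only one of 17 alternatives to call it. *Krt19* had 74.1 and 330 FPKM in ADPKD and 267 and 264 in ADPKD+MMPP, so the treated values lay between those of the ADPKD libraries. Its log2 fold change of 0.76 (SE 0.64, adjusted p = 0.313 from limma) was 1.83 and called without ADPKD replicate 2, and -0.31 without ADPKD replicate 1. Centred by gene structure it was 1.49 (adjusted p = 0.0685 from limma) and was not called.

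The basal keratins had higher FPKM with treatment, at low levels. *Krt5* had 0.564 and 0.298 FPKM in ADPKD and 5.13 and 8.59 in ADPKD+MMPP, which is 41 and 21 reads against 133 and 206. Its log2 fold change was 2.43 (SE 0.24, adjusted p = 0.000275 from limma), and it was called higher in each of 17 alternatives, at 1.30 when centred by gene structure. Its type I partner in basal cells, *Krt14*, had 0.103 and 0.373 FPKM in ADPKD and 0.964 and 1.46 in ADPKD+MMPP, and was not tested. *Krt15* had 0.308 and 1.09 FPKM in ADPKD and 2.30 and 1.45 in ADPKD+MMPP (log2 fold change 0.78, SE 0.30, adjusted p = 0.0521 from limma), and it was called higher at 0.89 when centred. In FPKM the treated libraries were above the ADPKD libraries for all 3 of these genes. *Krt14* had 6 and 21 reads in ADPKD and 20 and 28 in ADPKD+MMPP. *Krt15* had 18 and 62 reads in ADPKD and 48 and 28 in ADPKD+MMPP. The read numbers of these genes thus overlapped, and their separation in FPKM rests on the lower depth of the treated libraries.

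*Krt17* had 0.877 and 2.47 FPKM in ADPKD and 5.57 and 3.31 in ADPKD+MMPP, a log2 fold change of 1.06 (SE 0.34, adjusted p = 0.0303 from limma) that was -0.07 when centred by gene structure and was called in 8 of 17 alternatives. *Krt23* had 19.4 and 19.4 FPKM in ADPKD and 30.6 and 31.7 in ADPKD+MMPP, a log2 fold change of 0.66 (SE 0.19, adjusted p = 0.0187 from limma) that was -0.47 when centred and was called in 10 of 18 alternatives. The treated libraries were highest for both genes in FPKM as deposited, and the direction turned with the centring.

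**Figure D3:**
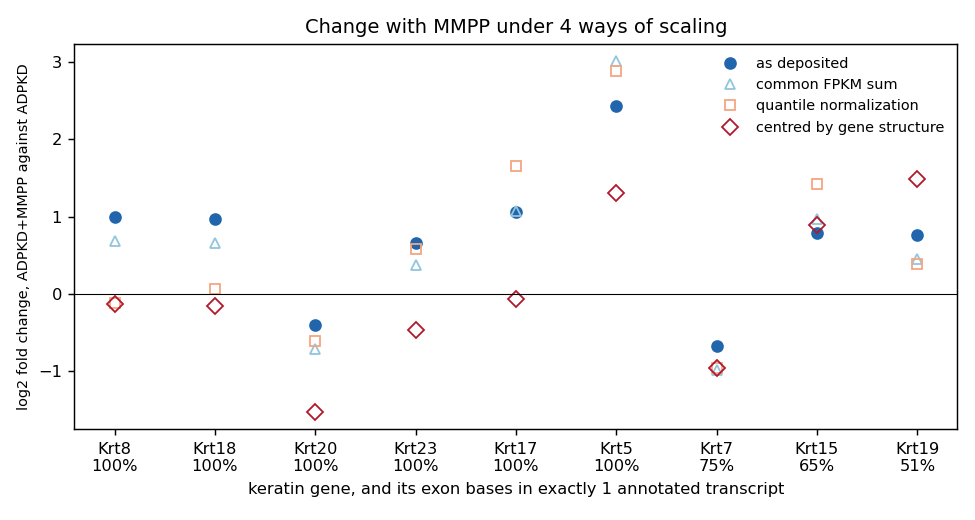
Log2 fold change of FPKM + 1 in ADPKD+MMPP against ADPKD for the 9 tested keratins, ordered by how much of their exon sequence belongs to exactly 1 annotated transcript, under FPKM as deposited (filled circles), a common FPKM sum (triangles), quantile normalization (squares) and centring by gene structure (diamonds). *Krt5* lies above 0 and *Krt7* and *Krt20* below 0 under all 4, while *Krt8* goes from 0.99 to -0.13.

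Markers of kidney cells moved in this comparison too, where 27.7% of all tested genes were called higher and 42.6% lower. When centred it was 33.8% and 24.0% of 12375 genes. All sums are of FPKM as deposited. Of 7 tested principal cell markers, 4 were called higher and 2 lower, and 0 and 1 when centred by gene structure, with a summed FPKM of 942 to 2482 in ADPKD and 5417 to 5441 in ADPKD+MMPP, mostly *Aqp2*. Of 6 tested urothelial markers, 4 were called higher and 0 lower, and their summed FPKM was 54.5 to 160 in ADPKD and 239 to 245 in ADPKD+MMPP. Centred by gene structure 1 of them was called higher. *Upk1a* had 2.49 and 1.78 FPKM in ADPKD and 8.46 and 8.13 in ADPKD+MMPP, and *Upk3a* had 0.0553 and 0.171 against 2.17 and 4.53. Of 4 tested squamous markers, 4 were called higher, and 1 when centred, with sums of 108 to 148 and 368 to 395 FPKM, mostly *Sprr1a*. Of 8 proximal tubule markers, 5 were called higher and 0 lower, and 8 and 0 when centred, with sums of 35 to 130 and 557 to 566 FPKM. Of 7 injured tubule markers, 2 were called higher and 2 lower, *Havcr1* among the latter, and 1 and 1 when centred. Their sums were 5931 to 6565 and 4484 to 4654 FPKM. Of 8 intercalated cell markers, 7 were called higher, and 7 when centred, with sums of 36.7 to 92.1 and 263 to 270 FPKM. Their part in the keratin values was not tested.

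In ADPKD+MMPP against WT, 9 of 9 tested keratins were called higher, where 29.9% of all tested genes were called higher and 43.5% lower. With no filter, 10 of 10 were called higher, against 14.3% higher and 21.4% lower of 31205 genes, and with at least 1 FPKM demanded in all 6 libraries, 5 of 5 were, against 36.6% higher and 34.0% lower of 8698 genes. Both comparisons with MMPP use the same 2 treated libraries. The log2 fold change was 6.56 for *Krt19* (SE 0.64, adjusted p = 0.000214 from limma), 4.21 for *Krt20* (SE 0.28, adjusted p = 5.53e-05 from limma), 3.30 for *Krt8* (SE 0.20, adjusted p = 4.23e-05 from limma) and 2.64 for *Krt18* (SE 0.18, adjusted p = 5.34e-05 from limma). These 4 genes were also called when centred by gene structure, at 7.25, 2.94, 2.04 and 1.37, while the median of the genes with 1 transcript was 1.23 before centring. For *Krt7* it was 0.97 (SE 0.16, adjusted p = 0.00203 from limma), and 0.60 when centred. *Krt23*, at 0.74 (SE 0.19, adjusted p = 0.0116 from limma), was at -0.53 when centred and not called. None of the keratins called in ADPKD was back within the range of the WT libraries after treatment in FPKM as deposited.

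Ratios within a library do not move with its scaling, and *Krt8*, *Krt18*, *Krt20* and *Krt23* all have 1 annotated transcript. *Krt8* shares sequence with the pseudogene *Krt8-ps*, and what this does to the ratios was not tested. *Krt18* was at 93.2% and 83.6% of *Krt8* in WT, 56.2% and 57.3% in ADPKD, and 58.5% and 53.3% in ADPKD+MMPP. The partner thus stood lower relative to *Krt8* in all 4 libraries labelled *Pkd1*-/- than in both WT libraries, and the values of ADPKD and ADPKD+MMPP overlapped. *Krt20* was at 0.277% and 0.589% of *Krt8* in WT, 3.79% and 4.0% in ADPKD, and 1.54% and 1.40% in ADPKD+MMPP, with no overlap between the groups. *Krt23* was at 6.59% and 7.06% in WT, 1.63% and 1.30% in ADPKD, and 1.19% and 1.16% in ADPKD+MMPP. In each of these ratios the WT libraries stood apart from the others. With 2 libraries a group, an exact two-sided permutation test cannot give a p below 0.333, and the ratios are given as descriptions with no test.

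*Krt19* was at 0.762% and 0.612% of *Krt8* in WT, 6.24% and 22.1% in ADPKD, and 10.4% and 9.67% in ADPKD+MMPP. *Krt7* was at 14.6% and 12.0% of *Krt8* in WT, 8.24% and 8.73% in ADPKD, and 2.76% and 2.55% in ADPKD+MMPP. *Krt7* and *Krt19*, the keratins of ducts, thus moved in opposite directions relative to *Krt8* in ADPKD. Both genes have more than 1 annotated transcript, which touches their values in ADPKD+MMPP. Per length of the principal transcript, *Krt7* was at 25.1% and 20.6% of *Krt8* in WT, 14.2% and 15% in ADPKD, and 4.76% and 4.39% in ADPKD+MMPP.

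**Figure D4:**
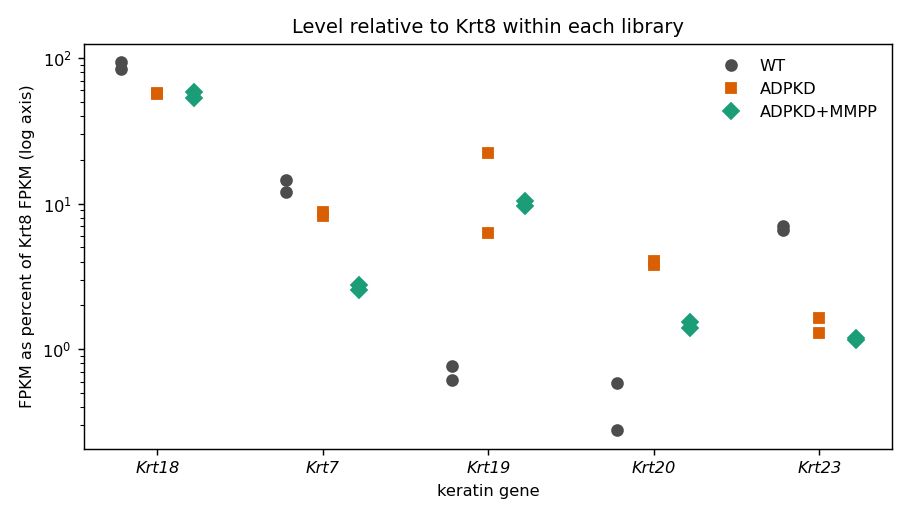
FPKM of 5 keratins as percent of the *Krt8* FPKM of the same library, on a log axis, with circles for WT, squares for ADPKD and diamonds for ADPKD+MMPP. *Krt19* and *Krt20* rise relative to *Krt8* from WT to ADPKD and *Krt18*, *Krt7* and *Krt23* fall, and the *Krt18* values of ADPKD and ADPKD+MMPP overlap.

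The 10 keratins together had 489 and 645 FPKM in WT, 2092 and 2895 in ADPKD, and 4501 and 4602 in ADPKD+MMPP, which was 0.184% and 0.242%, 0.735% and 1.03%, and 1.29% and 1.31% of the FPKM of the library. They made up 97.2% to 99.8% of the FPKM of all listed keratins. *Krt8* was 46.3% and 49.0% of their sum in WT and 51.6% to 59.3% in the other libraries, and *Krt18* was 43.2% and 41.0% in WT and 29.6% to 33.4% in the others. *Krt19* went from 0.353% and 0.30% in WT to 3.54% and 11.4% in ADPKD, and *Krt23* from 3.06% and 3.46% to 0.925% and 0.669%. *Krt8* and *Krt18* together were thus most of the keratin FPKM in every library.

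Type I keratins made up 46.0% ± 1.22 of the summed FPKM of WT, 41.2% ± 3.74 of that of ADPKD and 40.1% ± 1.51 of that of ADPKD+MMPP (SD, n = 2 each). The difference of ADPKD from WT was -4.74 percentage points (exact permutation p = 0.333, the smallest that 2 against 2 libraries allow), and that of ADPKD+MMPP from WT was -5.91 (exact permutation p = 0.333). Between ADPKD+MMPP and ADPKD it was -1.16 (exact permutation p = 1), less than the SD of either group. Per length of the principal transcript, ADPKD differed from WT by -3.35 (exact permutation p = 0.667), with ADPKD replicate 2 at 43.6% between the WT libraries at 43.3% and 44.7%, and ADPKD+MMPP differed from WT by -3.77 (exact permutation p = 0.333). The separation of ADPKD from WT thus depended on the length used.

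**Figure D5:**
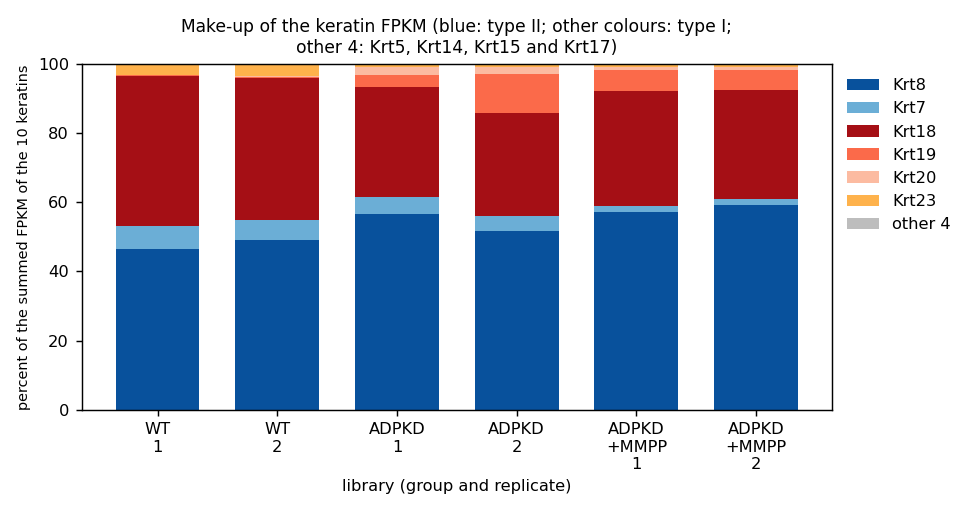
Percent of the summed FPKM of the 10 keratins that each gene makes up in the 6 libraries, with the type II keratins *Krt8* and *Krt7* in blue at the bottom, type I keratins in other colours above, and *Krt5*, *Krt14*, *Krt15* and *Krt17* together in grey. *Krt8* and *Krt18* fill most of each bar, and *Krt19* is largest in ADPKD replicate 2 with 11.4%.

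Some keratin reads can come from another gene. Of the stretches of 100 bases in *Krt8* transcripts, 17.1% occur also in transcripts of other genes, nearly all in the pseudogene *Krt8-ps*, which had 0.649 to 10.9 FPKM. The share of stretches of 100 bases was 3.81% for *Krt5*, mainly with *Krt6a*, and 2.78% for *Krt14*, with *Krt16*. It was 0 for *Krt7*, *Krt15*, *Krt17*, *Krt18*, *Krt19*, *Krt20* and *Krt23*. For stretches of 50 bases it was 29.7% for *Krt8*, 13.9% for *Krt14*, 12.2% for *Krt5*, 3.99% for *Krt17* and at most 0.916% for the others. *Krt6a* had at most 0.0125 FPKM and *Krt16* at most 0.820. *Krt7*, *Krt8* and *Krt5* overlap the span of a gene on the opposite strand, and whether the counting used strand was not given in the sources used here. These were *Gm671* with 0.872 to 1.89 FPKM, *Gm36026* with 0.0793 to 0.556 FPKM and *Gm44323*, listed at 0. The values of these neighbours were small beside those of *Krt7* and *Krt8*, and what the overlaps do to the keratin values was not tested.

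Of 44 other keratins of hair, skin and stratified epithelia, 43 were in the files, 15 were listed at 0 in all 6 libraries and 4 were tested. *Krt80*, a type II keratin, had 10.6 and 11.2 FPKM in WT, 11.3 and 11.6 in ADPKD, and 0.689 and 0.387 in ADPKD+MMPP. It fell with treatment by 3.03 on the log2 scale (adjusted p = 2.28e-05 from limma), and 52.0% of its exon bases lie in exactly 1 transcript. *Krt87* had 1.97 and 1.83 FPKM in WT and 3.38 and 6.63 in ADPKD, and *Krt10*, a keratin of differentiated epidermis, had 1.70 and 0.974 FPKM in ADPKD and 4.69 and 4.81 in ADPKD+MMPP. Outside the 10 keratins the family was thus far below *Krt8* and *Krt18*, while *Krt80* in WT lay above *Krt5*, *Krt14*, *Krt15*, *Krt17*, *Krt19* and *Krt20*.

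Keratin filaments are tied to desmosomes and hemidesmosomes by linker proteins. Of 14 tested genes for such anchors and linkers, 8 were called higher in ADPKD and 0 lower, against 12.0% and 10.6% of all tested genes. Their median log2 fold change was 0.66 against 0.03 over all tested genes. *Itgb4*, the hemidesmosomal integrin subunit, went from 7.38 to 25.1 mean FPKM (log2 fold change 1.62, adjusted p = 0.00632 from limma), and *Ppl*, which encodes periplakin, from 8.22 to 25.8 (log2 fold change 1.47, adjusted p = 0.0173 from limma). *Plec*, which encodes the linker plectin, went from 37.9 to 65.7 (log2 fold change 0.74, adjusted p = 0.0461 from limma). *Jup*, which encodes plakoglobin, had 75.0 and 84.4 mean FPKM and was not called. With treatment, 1 was called higher and 8 lower, against 27.7% and 42.6% of all tested genes. Their median was -1.22 against -0.36 over all tested genes. *Plec* had 0.778 mean FPKM after treatment, and *Itgb4* 0.797. Centred by gene structure, 3 were higher and 8 lower, against 33.8% and 24.0% of 12375 genes, with *Plec* at -3.07 and *Jup* at -1.75. *Dsp* and *Dsc2*, which encode the desmosomal proteins desmoplakin and desmocollin, were called lower as deposited, at -1.15 and -1.28, and called higher when centred, at 0.73 and 0.62.

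Among the 6 tested genes of other intermediate filaments, 1 was called higher in ADPKD and 2 lower, the latter being *Des* with 50.1 and 11.2 mean FPKM and *Nes* with 56.4 and 14.3. *Vim*, which encodes the mesenchymal filament protein vimentin, had 210 and 265 mean FPKM in WT and ADPKD and was not called (log2 fold change 0.33, adjusted p = 0.0778 from limma). With treatment 1 was called higher and 4 lower, *Vim* at 35.4 mean FPKM among the latter, and 0 higher and 4 lower when centred. Over all tested genes, 12.0% were called higher and 10.6% lower in ADPKD. The shares were 27.7% and 42.6% with treatment, and 33.8% and 24.0% when centred.

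Of 9 tested epithelial transcription factors, 4 were called higher in ADPKD and 0 lower. *Klf5* went from 9.40 to 35.9 mean FPKM (log2 fold change 1.84, adjusted p = 0.00289 from limma) and *Elf3* from 46.5 to 141 (log2 fold change 1.56, adjusted p = 0.0040 from limma). *Klf4*, the most abundant of them, had 494 and 471. With treatment 2 were called higher and 5 lower, and 2 and 2 when centred. Over all tested genes, 12.0% were called higher and 10.6% lower in ADPKD. The shares were 27.7% and 42.6% with treatment, and 33.8% and 24.0% when centred.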

How the data were processed

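RNA of DBA-enriched kidney cells was sequenced in 6 libraries. Per the labels, reads were aligned with HISAT2 2.1.0 to GRCm38 and counted with featureCounts 1.6.0, and the authors deposited FPKM per gene symbol for each library. From these, limma 3.58.1 (R 4.3.3) was fitted to log2(FPKM + 1) in one model of the 3 groups with a mean-variance trend. Genes with at least 1 FPKM in at least 2 libraries were tested, and the p-values were adjusted over all of them by Benjamini-Hochberg. Fold changes are on the FPKM + 1 scale, which understates those of low genes. Reads were recovered from FPKM and the exon bases of GENCODE M21, to which 53186 of 55367 symbols matched. Read numbers cover counting error only. The script was tested on simulated data.

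The keratins and the gene lists were chosen with earlier results of these data known. All 10 keratins are given. Of the other lists, the 2 tested genes with the highest mean FPKM and the 2 called genes with the largest change could be named, and *Dsp*, *Dsc2*, *Upk2*, *Cubn* and *Ptprc* were named outside this rule after their values were seen. Alternatives changed the pseudocount, filter, scaling, fit, threshold, replicate block, libraries and gene structure, and the length of the principal transcript was added after seeing the data. The sources used here gave no setting for strand.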

Additional observations from a re-analysis of the deposited data

How the results depend on the processing

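With 2 libraries a group and 2 to 206 reads a library, small changes of *Krt5*, *Krt14*, *Krt15* and *Krt17* were not detectable at this depth. Of the values of single keratins under the alternatives, 415 kept their direction and side of the threshold, 41 lost a call, 8 gained one and 10 turned direction. Changes of the filter, fit, threshold or replicate block leave the log2 fold change as it is, as does leaving out a library of the third group. Direction could not turn in these, and a threshold on unadjusted p could not lose a call. The 415 is therefore no measure of stability. In ADPKD against WT, 5 to 6 keratins were called higher when 1 library was left out.

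In ADPKD+MMPP against ADPKD, the 5 keratins called higher became 3 with at least 1 FPKM in all 6 libraries, 3 with a common FPKM sum, 3 with quantile normalization, 2 with a fold of at least 2 and 2 when centred by gene structure, and 3 to 6 when 1 library was left out. The number falls to 3 without ADPKD replicate 1 and without ADPKD+MMPP replicate 1. The 1 keratin called lower, *Krt7*, became 0 with median-ratio factors, 0 with a fold of at least 2, 2 when centred, and 0 to 1 when 1 library was left out, with 0 without ADPKD replicate 2 or either ADPKD+MMPP library. In ADPKD+MMPP against WT, the 9 called higher became 5 when all 6 libraries had to pass the filter, which left 5 keratins tested, and 7 to 9 when 1 library was left out. The cause was not tested, except that the stricter filter tests fewer genes.

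Over all genes, 4114 were called higher with treatment than in ADPKD as deposited and 6332 lower, 3428 and 7331 with a common sum, and 5299 and 4527 with quantile normalization, with medians of -0.36, -0.73 and 0.10. Centred by gene structure, with 12375 genes tested, it was 4186 and 2976. For ADPKD against WT there were 1790 higher and 1580 lower, and 1252 and 1146 with no filter, 946 and 876 with a fold of at least 2, and 612 and 530 without WT replicate 1.

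The direction turned for *Krt23* in ADPKD against WT with a common sum (-0.0025), without WT replicate 1 (-0.19) and when centred (-0.063), and was 0.35 without WT replicate 2. In ADPKD+MMPP against ADPKD it turned for *Krt8* with quantile normalization (-0.12) and when centred (-0.13), for *Krt17* (-0.066), *Krt18* (-0.16) and *Krt23* (-0.47) when centred, and for *Krt19* without ADPKD replicate 1 (-0.31), which was 1.83 and called without ADPKD replicate 2. *Krt23* in ADPKD+MMPP against WT was at -0.53 when centred. None of the values that turned was called.

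Leaving out 1 library, the difference in the type I share ranged from -7.39 to -2.10 percentage points for ADPKD against WT, from -3.81 to 1.48 for ADPKD+MMPP against ADPKD, where it turned without ADPKD replicate 2, and from -6.98 to -4.84 for ADPKD+MMPP against WT, which was -3.77 per length of the principal transcript.

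The correlations over genes of the replicate differences were 0.129 for WT with ADPKD, -0.00796 for WT with ADPKD+MMPP and 0.0137 for ADPKD with ADPKD+MMPP. With 2 libraries a group, they cannot show whether the replicate numbers pair the samples. With the replicate number as a block, 5 keratins were called higher in ADPKD against WT, *Krt17* losing its call, while treatment against ADPKD gave 5 higher and 1 lower, and treatment against WT gave 9 higher. Median-ratio factors were used in place of TMM factors, since the files hold no counts.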

Other observations

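Of 9438 genes of at least 5 FPKM in a group, the 3 whose log2 values over the 6 libraries were most like those of *Krt8* were *Chrnb1* (Pearson r = 0.9996), which encodes a subunit of the muscle acetylcholine receptor, *Dtx4* (r = 0.999), a member of the Deltex family, and *Cdh6* (r = 0.999), a cadherin of kidney tubules. *Krt18*, the partner of *Krt8*, had the rank of 8 (r = 0.996), *Krt19* of 231 and *Krt20* of 529. *Chrnb1* had 13.0 and 17.2 FPKM in WT, 42.4 and 50.2 in ADPKD, and 72.5 and 79.1 in ADPKD+MMPP. The 3 genes most like *Krt19* were *Cxcl5* (r = 0.998), which encodes a chemokine for neutrophils, *Capn5* (r = 0.998), a calpain, and *Akr1b8* (r = 0.997), an aldo-keto reductase. *Akr1b8* had 4.12 and 6.03 FPKM in WT, 39.3 and 84.7 in ADPKD, and 72.7 and 69.1 in ADPKD+MMPP, so that ADPKD replicate 2 was highest, as for *Krt19*. These correlations are over 6 libraries that share their groups and the way the values were made, and they are descriptions without a test.

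Markers of 3 other kinds of cells are given by their calls and sums. Over all tested genes, 12.0% were called higher and 10.6% lower in ADPKD. With treatment against ADPKD the shares were 27.7% and 42.6%, and 33.8% and 24.0% when centred. Of 6 tested leukocyte markers, 5 were called higher and 1 lower in ADPKD. With treatment against ADPKD, 2 were called higher and 4 lower, the latter *Ptprc*, *Cd68*, *Adgre1* and *Csf1r*, and 2 and 2 when centred. Their sum was 41.0 to 46.3 FPKM in WT, 266 to 311 in ADPKD and 597 to 598 in ADPKD+MMPP, where *Lyz2*, which encodes lysozyme, made up a mean of 566 FPKM. Of 6 markers of thick limb and distal convoluted tubule, 0 were called higher and 1 lower in ADPKD. With treatment against ADPKD it was 1 and 0, and 5 and 0 when centred. The sum was 517 to 1301, 191 to 631 and 201 to 202 FPKM. Of 7 fibroblast and endothelial markers, 3 were called higher and 4 lower in ADPKD. With treatment against ADPKD it was 2 and 3, and 1 and 5 when centred. The sum was 449 to 567, 327 to 328 and 225 to 236 FPKM.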
